A study of Mus musculus with 6 samples.

Results

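The Cml and Nat8 genes encode camello-like acetyltransferases, small enzymes of the GNAT superfamily that sit in the membrane of the endoplasmic reticulum. They were taken as every gene of the deposited tables whose symbol is Cml with a single digit or begins with Nat8, which gave 6 of 24346 genes: Cml1, Cml2, Cml3, Cml5, Nat8 and Nat8l. The group was put together with the present comparison in view, so the values of its members are described without a test. RNA of the renal cortex had been sequenced from 6 C57BL/6 mice, all fed for 8 weeks a steatohepatitis-inducing chow labelled HF/HC/HS/BA, high in fat and cholesterol and with added bile salt. The diet of 3 mice contained tofogliflozin, an inhibitor of the sodium-glucose transporter SGLT2 of the early proximal tubule. The other 3 mice received the same diet without the drug, so every animal carries the effects of that diet, and animals on ordinary chow were not analysed here. The labels used here state no sex, age or drug dose.

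Nat8 makes mercapturic acids. Foreign and endogenous electrophiles are first joined to glutathione, the conjugate is trimmed by peptidases at the cell surface to a cysteine conjugate, and Nat8 acetylates the amino group of that cysteine with acetyl-CoA, so that the product can be excreted in urine. The enzyme is known from proximal tubule and liver. Cml1, Cml2, Cml3 and Cml5 are its relatives in rodents, with less settled substrates, and Nat8l is a distant member that makes N-acetylaspartate in neurons.

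All members except Nat8l lie on the minus strand of mouse chromosome 6, within 155.3 kb (GRCm38, 85760631 to 85915914), with some other genes between them. RefSeq now gives the Cml genes Nat8f names, and Nat8 keeps its own. From left to right the clustered members are Cml3 (Nat8f3, 85760631 to 85765767), Cml5 (Nat8f5, 85817218 to 85820972), Nat8 (85830387 to 85836857), Cml2 (Nat8f2, 85865422 to 85869137) and Cml1 (Nat8f1, 85910154 to 85915914). Nat8l lies elsewhere, on chromosome 5 (plus strand, 33995984 to 34005916). In each of the 5 clustered genes the GENCODE annotation places the whole coding sequence in 1 exon. Cml5 has 3 exons, and its coding sequence of 684 bases lies in exon 3. Another 3 genes of the same family carry other symbols and are not members: Gm11128 (Nat8f6) and 1700019G17Rik (Nat8f4) within these bounds, and Gm4477 (Nat8f7, 85706707 to 85708885) to the left of them. RefSeq gives Cml3 as an older name of Nat8f3, Nat8f6 and Nat8f7. Since Gm11128 and Gm4477 have values of their own, Cml3 was taken as Nat8f3.

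How far the copies can be told apart differs between them. The coding sequences of Cml3, Gm11128 and Gm4477 are 99.6% to 99.7% identical, while that of Cml5 is 80.0% identical to Nat8, 81.1% to Cml1 and 77.8% to Cml2. Of all 50-base stretches in its annotated transcripts, Cml5 has 90.7% that occur in no other gene, Nat8 94.3%, Cml2 82.1%, Cml1 54.4% and Cml3 47.9%. The 9.3% that Cml5 shares are with Gm11128, because a longer annotated Gm11128 transcript begins in exons 1 and 2 of Cml5. For Cml1, 45.6% of the stretches also occur in Tprkb, which overlaps it on the opposite strand, or in the pseudogene Nat8b-ps. The library kit marks strand, per the labels, but whether the counting used strand is not given there. The values of Cml3, and in part those of Cml1, are therefore uncertain, and those of Cml5, Nat8 and Cml2 rest mostly on sequence of their own.

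Sequences before annotated starts of Cml5, Cml2, Nat8 and Cml3 are shown because some members differed between the groups and others overlapped. Likeness there is uneven. The Cml5 window was 74.1% identical to that of Cml2 over 108 aligned bases. To that of the longer form of Nat8 it was 59.8% identical over 107. Each is the 150 bases before 1 annotated RefSeq start (GRCm38.p6), 5′ to 3′ on the strand of the gene, in lower case, with matches on either strand to 5 searched motifs in capitals. The motifs were chosen after the sequences and the values were seen. The first, GTTTATNATT, is what a stretch of Cml5 and one of Gm11128 have in common, with N where they differ. The next is TGACCTTTG, which precedes it in Cml5. The others are the CCAAT box, the TATAAA of the TATA box and the E-box CACGTG.
Cml5, chr6:85820973-85821122, minus strand: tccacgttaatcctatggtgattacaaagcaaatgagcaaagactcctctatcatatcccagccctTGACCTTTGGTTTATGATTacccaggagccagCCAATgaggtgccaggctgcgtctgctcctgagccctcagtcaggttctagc
Cml2, chr6:85869138-85869287, minus strand: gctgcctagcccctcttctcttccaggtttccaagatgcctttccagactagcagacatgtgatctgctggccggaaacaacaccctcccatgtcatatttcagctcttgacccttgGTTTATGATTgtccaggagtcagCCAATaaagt
Nat8, shorter form, chr6:85832280-85832429, minus strand: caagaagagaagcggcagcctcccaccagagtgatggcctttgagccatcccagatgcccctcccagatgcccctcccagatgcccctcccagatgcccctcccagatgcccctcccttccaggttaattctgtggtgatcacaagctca
Nat8, longer form, chr6:85836858-85837007, minus strand: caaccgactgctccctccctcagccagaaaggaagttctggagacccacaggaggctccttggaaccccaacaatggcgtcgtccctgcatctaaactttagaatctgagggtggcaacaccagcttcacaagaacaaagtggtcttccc
Cml3, chr6:85765745-85765894, minus strand: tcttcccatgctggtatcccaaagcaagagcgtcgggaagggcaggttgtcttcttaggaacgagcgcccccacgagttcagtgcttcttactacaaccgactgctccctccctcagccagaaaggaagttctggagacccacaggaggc
Cml5, Cml2 and Gm11128 hold GTTTATNATT followed by CCAAT, at bases 75 to 66 and 52 to 48 before the start in Cml5, at 33 to 24 and 10 to 6 in Cml2, and at 89 to 80 and 59 to 55 in Gm11128. Gm4477 holds the same pair. GTTTATNATT occurs in 39 of 32851 RefSeq windows of this length (0.119%), among them these 3 and Gm4477, which are copies of related sequence and do not count as separate occurrences. Since GTTTATNATT was built from the windows of Cml5 and Gm11128, its presence in both was given. CCAAT occurs in 24.5% of windows. TGACCTTTG, directly before GTTTATGATT in Cml5, was copied from that window, so its presence there was given. As an exact match it is found in 0.244% of windows and in no other window of the family examined. Cml2 has a near copy, tgacccttg, directly before its own GTTTATGATT, so the stretch is not particular to Cml5. TATAAA (7.57% of windows) was found in the family as its reverse complement, inside the GTTTATAATT of Gm11128 and Gm4477, and CACGTG (4.30%) was not found. The windows examined for Nat8, Cml3 and Cml1 hold no match to the 5 motifs. Cml5 and Cml2 hold the pair and their groups were apart, but those of Nat8 were apart without it. In Gm11128 and Gm4477, which hold the pair, the groups overlapped. A link between these stretches and the values was not tested. For Cml3 and Cml1 the RefSeq gene extends past the start used, to 85765767 and 85915914 against 85765744 and 85915632, so other starts of these genes were not examined. The longer form of Nat8 and Cml3 have related starts: where their windows overlap in an alignment, 56 of 56 bases are identical.

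The 5 clustered genes differed widely in level, and their order was the same in every library: Cml1, Nat8, Cml5, Cml2, Cml3. On the FPKM scale, fragments per kilobase of transcript scaled to library size, which allows levels of different genes to be compared, the means over all 6 libraries were 532.5 for Cml1, 423.7 for Nat8, 139.9 for Cml5, 22.0 for Cml2 and 4.89 for Cml3. Cml1 ranked 150th and Nat8 208th among the 24346 genes. With tofogliflozin Cml1 and Nat8 came close to each other, at 497 and 493 FPKM in replicate 3. All other neighbours in the order stayed well apart. Nat8l was listed at 0 in 2 libraries and at 0.0741 FPKM or less in the others, below the 1 FPKM in at least 3 libraries that a gene needed in order to be tested, and it is left out of what follows.

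**Figure D1:**
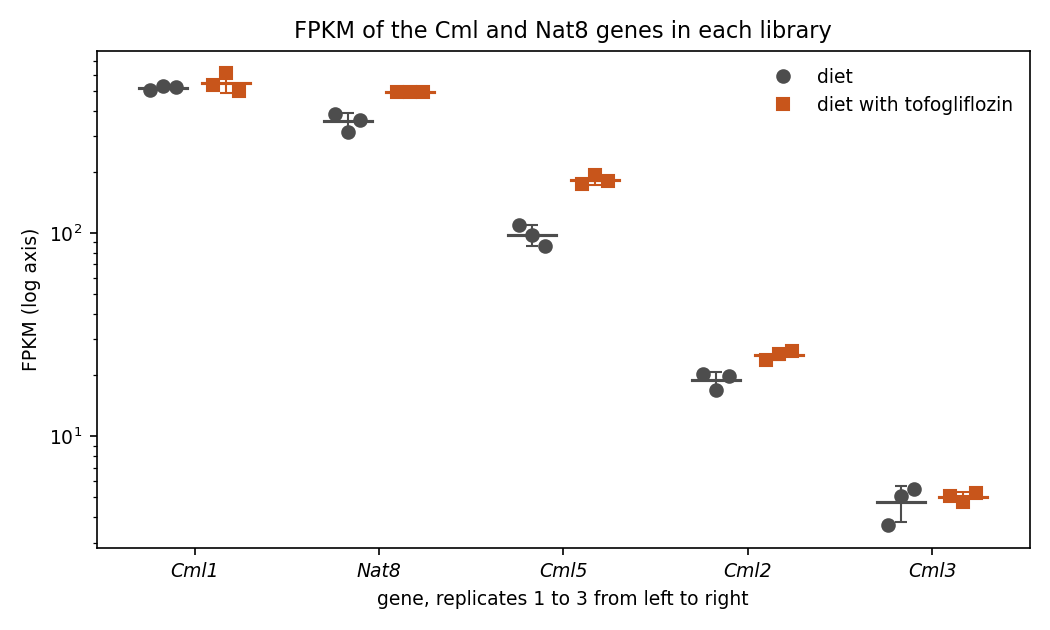
FPKM of the 5 clustered genes in each library on a log axis, with replicates 1 to 3 from left to right, the group mean as a line and the SD as a bar (n = 3 per group). Nat8, Cml5 and Cml2 have all tofogliflozin libraries above all diet libraries, and the groups of Cml1 and Cml3 overlap.

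Mice given tofogliflozin had more Cml5, Nat8 and Cml2 RNA than mice on the diet alone, by 1.87-fold, 1.40-fold and 1.32-fold of the group means. For Cml1 and Cml3 the means differed by 1.06-fold each, and the groups overlapped. Cml5 had the largest difference. Its level was 109, 98.0 and 86.1 FPKM with the diet alone and 175, 193 and 179 FPKM with tofogliflozin. The lowest tofogliflozin library lay well above the highest diet library. In bulk cortex a larger number of cells of a type and more RNA per cell cannot be told apart. Group means were 97.7 ± 11.4 and 182 ± 9.32 FPKM (SD, n = 3 per group). The log2 difference of Cml5 was 0.90 ± 0.10 (SE from limma; 95% interval 0.68 to 1.12), on the log2(FPKM + 1) scale used throughout, and it ranked 64th of the 12248 tested genes from the top.

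Nat8, the mercapturic acid enzyme itself, was at 386, 315 and 359 FPKM with the diet and at 492, 496 and 493 FPKM with tofogliflozin. The groups do not overlap, and the coefficient of variation was 0.351% among the tofogliflozin libraries against 10.1% among the diet libraries. Group means were 354 ± 35.8 and 494 ± 1.73 FPKM, a log2 difference of 0.49 ± 0.09 (SE; 95% interval 0.28 to 0.70).

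Cml2, the weakest of the genes that stood apart, was at 20.3, 16.9 and 19.7 FPKM with the diet and at 23.7, 25.4 and 26.2 FPKM with tofogliflozin. Diet replicate 2 was the lowest library for Cml2 and for Nat8, though not for Cml5, which was lowest in diet replicate 3. Group means of Cml2 were 19.0 ± 1.81 and 25.1 ± 1.29 FPKM, a log2 difference of 0.39 ± 0.09 (SE; 95% interval 0.19 to 0.59).

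Cml1, the most abundant member, was at 502, 531 and 521 FPKM with the diet and at 535, 609 and 497 FPKM with tofogliflozin. Tofogliflozin replicate 3 was the lowest of all 6 libraries and replicate 2 the highest. Its means were 518 ± 14.8 and 547 ± 57.2 FPKM, a log2 difference of 0.07 ± 0.09 (SE; 95% interval -0.14 to 0.29). Cml3 was at 3.65, 5.07 and 5.52 FPKM with the diet and at 5.09, 4.73 and 5.28 FPKM with tofogliflozin, so that the diet libraries enclose the others. Its log2 difference was 0.08 ± 0.13 (SE; 95% interval -0.23 to 0.39). Both intervals end below that of Cml5 and both overlap those of Nat8 and Cml2. Differences between members were not tested.

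Of the 5 tested members, 1 (Cml5) was past the limma threshold of a Benjamini-Hochberg adjusted p of 0.05, as were 0.253% of all tested genes (31 of 12248; 0.196% higher and 0.0572% lower with tofogliflozin). At an unadjusted p under 0.05, 6.7% of all tested genes were higher and 6.39% lower, 13.1% together. The count of members past the threshold was 0 without tofogliflozin replicate 1, 2 or 3. All 3 tofogliflozin libraries lay above all 3 diet libraries for 3 of the 5, and for 9.63% of all tested genes. The reverse order held for none of the 5 and for 8.86% of all tested genes, so that the groups did not overlap for 18.5%. The median log2 difference was 0.39 over the 5 and -0.001 over all tested genes. Because the members were chosen with this comparison known, these counts support nothing beyond the values. By the approximate depth of the libraries, the values of Cml5 rest on about 707 to 1700 fragments per library and those of Cml3 on about 51.1 to 91.4.

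Summed over the 5 genes, the cluster stood at 1021, 966 and 992 FPKM with the diet and at 1231, 1328 and 1201 FPKM with tofogliflozin, and the groups do not overlap. That was 0.160% to 0.171% of the total FPKM of a diet library and 0.201% to 0.211% of a tofogliflozin library. The make-up of the sum gives the same values again as shares. The mean of Cml1 itself was not lower with tofogliflozin (547 against 518 FPKM), though its share was. Cml5 contributed 10.7%, 10.2% and 8.68% with the diet and 14.2%, 14.5% and 14.9% with tofogliflozin, while the share of Cml1 was 49.2%, 55.0% and 52.5% against 43.5%, 45.9% and 41.4%. Neither share overlaps between the groups. The share of Nat8 overlaps, at 32.6% to 37.8% and 37.3% to 41.1%.

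**Figure D2:**
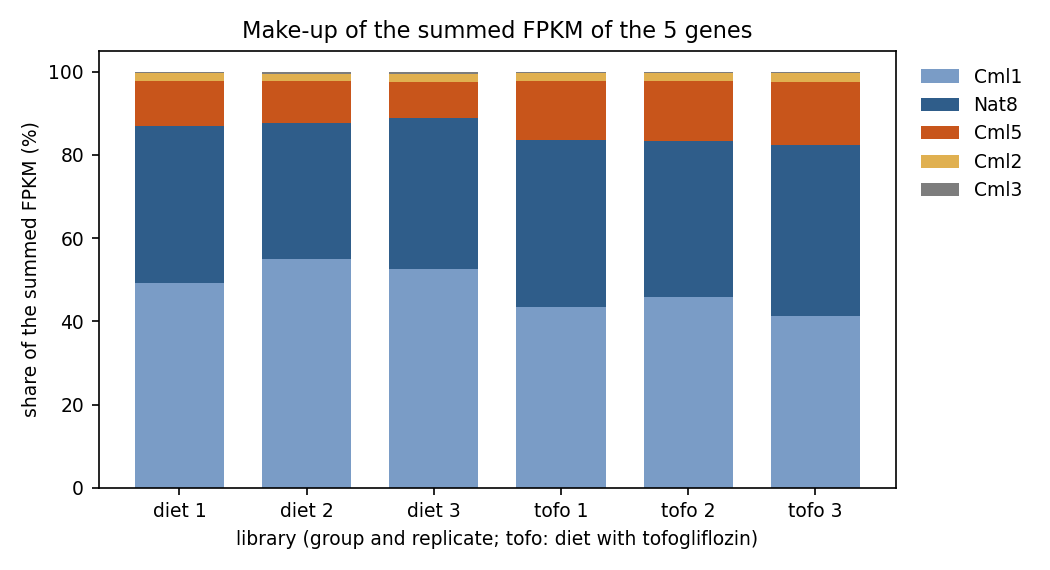
Share of each gene in the summed FPKM of the 5 clustered genes, 1 bar per library. The Cml5 part is 8.68% to 10.7% in the diet libraries and 14.2% to 14.9% with tofogliflozin, and the Cml1 part is smaller in each tofogliflozin library than in each diet library.

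Ratios within a library do not depend on scaling between libraries. Cml5 stood to Cml1 as 0.217, 0.185 and 0.165 with the diet and as 0.327, 0.316 and 0.360 with tofogliflozin. Cml5 was also higher relative to Nat8, at 0.240 to 0.311 against 0.355 to 0.389, and relative to Cml2, at 4.36 to 5.81 against 6.82 to 7.59. Cml2 and Nat8 kept a nearly fixed proportion, 0.0525 to 0.0549 with the diet and 0.0481 to 0.0532 with tofogliflozin, and these ranges overlap. Over the 6 libraries Pearson's r of the log2 values was 0.978 between Cml2 and Nat8, 0.94 between Cml5 and Nat8 and 0.90 between Cml5 and Cml2, and 0.41 or less for each pair with Cml1 or Cml3. The 6 points share the difference between the groups, so these r values describe the same pattern again.

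The 3 family genes with other symbols were not picked by the rule for members, but they share sequence with members and were listed with earlier results known, so they are no independent set. None of the 3 passed (limma, 1 of 3 at an unadjusted p under 0.05), and in all 3 the log2 difference was above 0. Gm11128, whose longer transcript starts in Cml5, was at 62.7, 85.2 and 56.6 FPKM with the diet and at 85.9, 88.5 and 84.2 FPKM with tofogliflozin. Diet replicate 2 lay within the tofogliflozin range, and without that library Gm11128 passed, with a log2 difference of 0.53. With all libraries it was 0.36 ± 0.14 (SE; limma adjusted p = 0.325). 1700019G17Rik was at 5.03 ± 1.06 and 5.74 ± 0.153 FPKM and Gm4477 at 4.02 ± 1.30 and 4.75 ± 0.611 FPKM (limma adjusted p = 0.622 and 0.657), and the reads of Gm4477 and Gm11128 cannot be kept apart from those of Cml3 over most of their length.

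Outside the family, 21 genes of the tables begin or end within 500 kb of the cluster, of which 14 were tested and none passed (limma; 2 higher and 1 lower at an unadjusted p under 0.05). Their median log2 difference was 0.06. The pseudogene Alms1-ps2, which lies inside the cluster on the plus strand between Cml3 and Gm11128, was at 1.45, 1.45 and 1.56 FPKM with the diet and at 3.09, 2.39 and 3.22 FPKM with tofogliflozin. Its libraries were apart, with a log2 difference of 0.64 ± 0.12 (SE; limma adjusted p = 0.0819). Of the 14 tested genes, 2 had all tofogliflozin libraries above all diet libraries, against 9.63% of all tested genes. Another 2 had them all below, against 8.86%. Alms1, the ciliary gene of Alström syndrome and the nearest tested gene on the left, was at 1.13 ± 0.165 and 1.28 ± 0.369 FPKM (limma adjusted p = 0.864). Tprkb, a partner of a tRNA-modifying kinase that overlaps Cml1, was at 70.2 ± 6.36 and 74.9 ± 8.62 FPKM, and Dusp11, an RNA phosphatase gene and the nearest tested gene on the right, at 27.9 ± 2.47 and 31.0 ± 2.11 FPKM (limma adjusted p = 0.769 and 0.532). Farther out, Rab11fip5, an endosome trafficking gene, was at 38.5 ± 4.92 and 30.7 ± 1.94 FPKM, and Snrpg, a spliceosome subunit gene, at 80.3 ± 7.36 and 93.7 ± 2.61 FPKM (limma adjusted p = 0.252 and 0.293). The libraries of both were apart as well, lower for Rab11fip5 and higher for Snrpg.

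**Figure D3:**
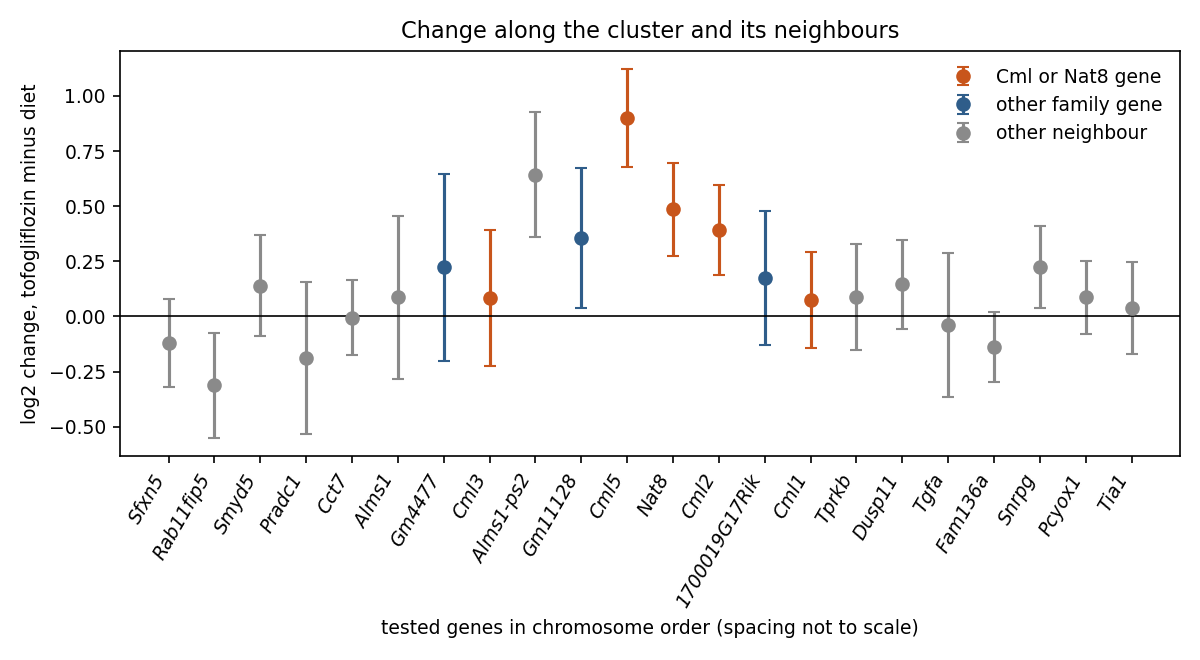
Log2 difference between the groups (tofogliflozin minus diet, log2(FPKM + 1) scale) with its 95% interval for each tested gene of the cluster and its neighbours, in chromosome order and not to scale. Cml5 (0.90), Alms1-ps2 (0.64), Nat8 (0.49) and Cml2 (0.39) stand highest, all between Cml3 (0.08) and Cml1 (0.07).

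The mercapturic acid pathway around the acetylation step did not move in 1 direction. Of 50 genes listed for 6 steps, 44 were tested and none passed over all genes (limma, where 0.253% of all tested genes did). At an unadjusted p under 0.05, 11 of the 44 were higher and 10 lower, against 6.7% and 6.39% of all tested genes (limma). Unadjusted differences were thus more frequent here than over all genes, in both directions, in lists chosen with earlier results known. The log2 difference was above 0 for 22 of the 44, with a median of -0.01. Over all tested genes it was above 0 for 49.7%, the share to set beside the counts for each step below. Without diet replicate 2 there were 3 that passed: Gsta2 and Slc22a8 rose, and Cndp2 fell.

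Upstream, the 4 tested genes listed under glutathione synthesis all had a difference below 0. The list includes Gsr, which recycles glutathione and does not make it. Gclm, the modifier subunit of glutamate-cysteine ligase, was at 134, 120 and 118 FPKM with the diet and at 85.7, 104 and 86.1 FPKM with tofogliflozin, with the groups apart (limma adjusted p = 0.135). Gss, glutathione synthetase, was at 199 ± 19.5 and 160 ± 12.5 FPKM and Gsr, glutathione reductase, at 61.4 ± 3.90 and 53.5 ± 1.28 FPKM (limma adjusted p = 0.225 and 0.298). Among the 19 tested glutathione transferase genes, 14 had a difference above 0, with a median of 0.14. Gsta2, an alpha-class transferase, was at 154, 263 and 136 FPKM against 352, 387 and 442 FPKM (limma adjusted p = 0.0881). Gstt2 was at 136 ± 12.9 and 185 ± 9.77 FPKM and Gsto1 at 32.0 ± 3.70 and 44.0 ± 1.26 FPKM (limma adjusted p = 0.0867 and 0.0967). For each of these transferases all tofogliflozin libraries were above all diet libraries, yet none passed, and close relatives within a class can share reads.

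The genes listed as peptidases of conjugate trimming leaned the other way, with 6 of 7 tested below 0. Cndp2, a cytosolic dipeptidase, was at 1098, 644 and 922 FPKM with the diet and at 407, 477 and 370 FPKM with tofogliflozin. Its log2 difference of -1.06 ± 0.19 (SE; limma adjusted p = 0.0726) was opposite in sign to that of Cml5 and larger in size. Lap3, leucine aminopeptidase, was at 273 ± 29.4 and 220 ± 14.2 FPKM, and Ggt1, the gamma-glutamyl transferase that opens glutathione conjugates, at 665 ± 99.4 and 567 ± 54.5 FPKM (limma adjusted p = 0.233 and 0.492).

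Acy3, the aminoacylase that removes the acetyl group which Nat8 adds, was far more abundant than Nat8, at 3329, 2230 and 2364 FPKM with the diet and at 1427, 2030 and 1312 FPKM with tofogliflozin. All tofogliflozin libraries were below all diet libraries, and the difference did not pass (log2 difference -0.74 ± 0.21, SE; limma adjusted p = 0.201). Acy1 and Aspa, the other deacylases listed, were at 83.1 ± 9.96 and 84.6 ± 14.1 FPKM and at 120 ± 5.41 and 132 ± 10.7 FPKM (limma adjusted p = 0.966 and 0.548). Among the lyases that split cysteine conjugates instead, Agxt2 was at 74.1 ± 3.36 and 96.7 ± 4.05 FPKM, Ccbl2 at 20.8 ± 1.92 and 29.9 ± 3.27 FPKM and Ccbl1 at 77.7 ± 10.9 and 69.5 ± 4.27 FPKM (limma adjusted p = 0.0758, 0.0967 and 0.584).

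Transporters of organic anions, which carry mercapturates among many other substrates, were mixed. Slc22a8 (OAT3), an uptake carrier of the basolateral membrane, was at 150, 200 and 159 FPKM with the diet and at 238, 252 and 272 FPKM with tofogliflozin (limma adjusted p = 0.0883). Slc17a3, an apical exit carrier, was at 205 ± 18.9 and 157 ± 16.4 FPKM (limma adjusted p = 0.184). Slc22a7 (OAT2) varied widely, at 77.1, 23.3 and 65.3 FPKM against 8.53, 32.4 and 7.78 FPKM, and its groups overlapped (limma adjusted p = 0.234).

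**Figure D4:**
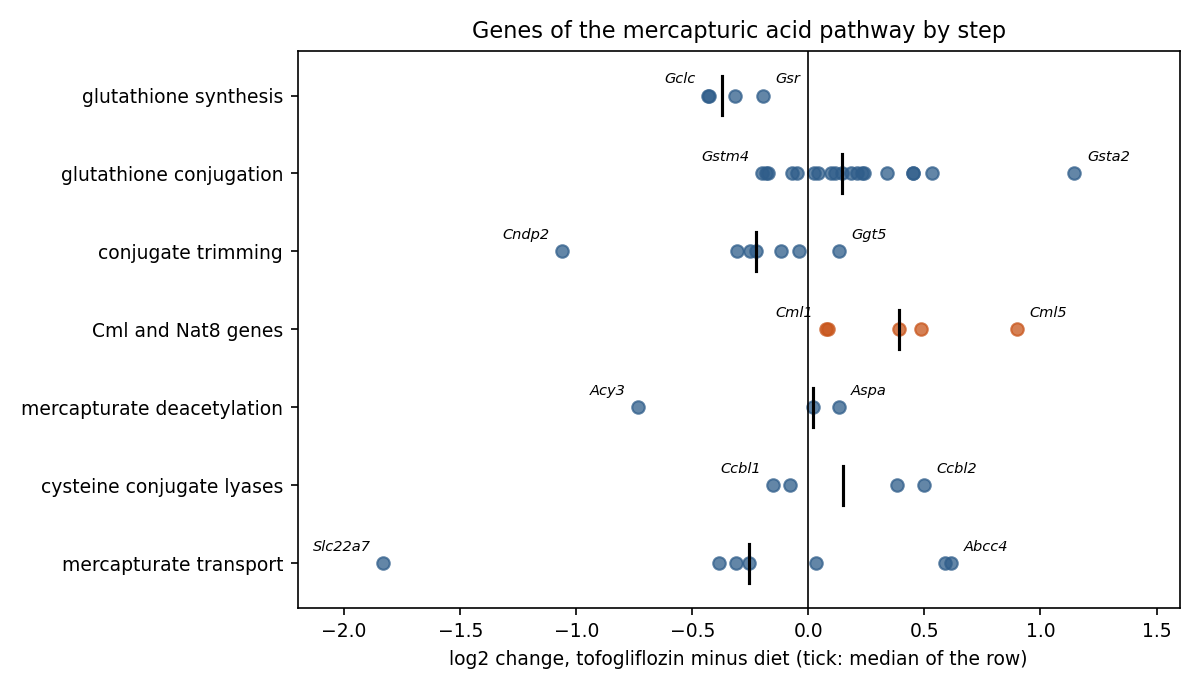
Log2 differences (tofogliflozin minus diet) of the tested genes at each step of the mercapturic acid pathway, 1 point per gene with the median of each row as a tick and the outermost genes named. The Cml and Nat8 genes have a median of 0.39, the peptidases one of -0.23 and the glutathione synthesis list, which includes Gsr, one of -0.37.

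Among 25 other acetyl and acyl transferase genes tested, none passed (limma; 3 higher and 0 lower at an unadjusted p under 0.05) and the median log2 difference was 0.02. Nat6 (Naa80), which acetylates actin, was at 21.7 ± 2.04 FPKM with the diet and 38.1 ± 5.72 FPKM with tofogliflozin (limma adjusted p = 0.0532). In the annotation Nat6 overlaps Hyal3 and Hyal1. Hyal1, a hyaluronidase gene, rose from 5.04 to 17.4 FPKM (limma adjusted p = 0.00769), and whether the value of Nat6 holds reads of Hyal1 was not tested. Nat1, an arylamine acetyltransferase, was at 0.717, 0.408 and 0.282 FPKM with the diet and at 1.74, 1.21 and 1.09 FPKM with tofogliflozin, so that it was tested only through the latter (limma adjusted p = 0.181). Sat2, of the spermidine acetyltransferase family, was at 16.0 ± 2.12 and 19.5 ± 1.28 FPKM (limma adjusted p = 0.326). Of the transcription factors listed for the proximal tubule, Hnf4g was at 4.43 ± 0.499 and 3.49 ± 0.417 FPKM and Ppara at 32.8 ± 4.41 and 42.0 ± 7.07 FPKM (limma adjusted p = 0.363 and 0.339).

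Markers of cell types in the cortex also differed between the groups. The summed level of 10 markers of the early proximal tubule was 5445 to 6647 FPKM with the diet and 5775 to 6023 FPKM with tofogliflozin. That of 7 markers of the late proximal tubule was 1317 to 1444 against 1055 to 1175 FPKM, lower where Cml5, Nat8 and Cml2 were higher. None of these 7 passed (limma; 5 lower at an unadjusted p under 0.05, against 6.39% of all tested genes). For 5 of them the tofogliflozin libraries were all below the diet libraries, against 8.86% of all tested genes. Atp11a was among these 5 (371 ± 33.9 and 252 ± 18.2 FPKM; limma adjusted p = 0.0682). Sums were higher with tofogliflozin for 7 collecting duct markers (204 to 246 against 276 to 331 FPKM) and 4 distal convoluted tubule markers (421 to 466 against 497 to 561 FPKM). They overlapped for markers of the thick ascending limb, podocytes and endothelium. The macrophage sums overlapped too, and diet replicate 2 had the highest, 245 FPKM against 70.6 to 129 FPKM in the others. All 6 macrophage markers had a log2 difference below 0 (median -0.49), with none past the threshold and 2 lower at an unadjusted p under 0.05 (limma). Csf1r, the receptor of a macrophage growth factor, was at 17.5 to 20.2 FPKM with the diet and 11.1 to 15.6 FPKM with tofogliflozin, so its groups were apart (limma adjusted p = 0.198). Of 5 hepatocyte markers, Apoa1, Cyp2c29 and Serpina3k were below 1 FPKM in every library. Alb, albumin, was at 3.37 to 4.33 FPKM with the diet and 6.72 to 8.42 FPKM with tofogliflozin, also apart (limma adjusted p = 0.0541), and Ttr at 72.6 to 141 and 49.7 to 99.8 FPKM (limma adjusted p = 0.510). The part of these shifts in the values of the cluster was not tested.

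By likeness of pattern, the genes closest to Cml1, the most abundant member, were Golga5 (Pearson's r = 0.975 of log2 values over 6 libraries, the highest of 8668 genes with a mean of at least 5 FPKM), Ado, Fam192a, Cdc42ep1 and Sbk1 (0.938 to 0.955). Like Cml1 they were highest in tofogliflozin replicate 2: Golga5 was at 16.8, 18.3 and 17.6 FPKM with the diet and at 17.7, 20.1 and 16.7 FPKM with tofogliflozin. For Cml5, chosen here after its values were seen, they were Gmds (0.996), Echdc3 and Rragd (0.987 each), and Aplp2 and Tfb2m (0.985 each). The sizes of the differences were unlike: Echdc3 was at 28.6, 24.4 and 23.7 FPKM against 50.5, 57.5 and 45.8 FPKM, whereas Gmds was at 11.4, 11.0 and 10.9 FPKM against 12.5, 12.6 and 12.4 FPKM. The 6 points again share the difference between the groups.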

How the data were processed

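The authors deposited 1 table per library with an FPKM value for each gene, per the file headers. Per the submitters' processing notes Cuffdiff 2.2.1, TopHat2 2.1.1, SAMtools 0.1.18 and Bowtie2 2.2.8 were used with build mm10. The notes state neither their roles, nor the annotation, nor a scaling of libraries. Library totals were 565754 to 633338 FPKM. Depth was estimated from genes with a single transcript. Each of their values above 0 was taken as 1 fragment, which gives a library total. The median around the most frequent total was used, roughly 7690000 to 9860000 fragments.

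For 12248 genes reaching 1 FPKM in 3 or more libraries, log2(FPKM + 1) values were computed and tested in R 4.3.3 by limma 3.58.1 (moderated two-sided test with a trend, Benjamini-Hochberg adjustment over all tested genes, threshold 0.05). Tested on simulated data modelled on these groups and 12248 genes, it recovered 58.2% of changes of 0.5 (log2), 91.0% of changes of 1 and 95.5% of changes of 2. The changes were placed in 67, 67 and 66 genes at once, all above a floor in level, with normally distributed noise. The rates therefore do not cover weakly expressed genes and hold for that many changed genes. The p-values measure the spread between these samples.

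Named are all members, list genes and neighbours past the threshold or else the 3 of smallest p, the nearest tested neighbours, and the 5 genes most like the most abundant member. A gene that this rule names is not reported here. Members and lists were chosen with earlier results of these data known. Promoter windows are from RefSeq (GRCm38.p6; all 5 clustered members matched) and transcripts from GENCODE M21 (GRCm38). Python 3.11.15 and matplotlib 3.10.9 made the figures. Alternatives were other pseudocounts, filters, scalings and trends, a replicate block and leaving out each library.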

Additional observations from a re-analysis of the deposited data

How the results depend on the processing

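The log2 differences of Cml5, Nat8 and Cml2 stayed above 0 in each of 13 other settings, at 0.81 to 0.98, 0.41 to 0.55 and 0.31 to 0.44, while those of Cml1 (-0.01 to 0.14) and Cml3 (-0.06 to 0.18) fell below 0 in 1 setting each. The 31 genes past the threshold became 1 with no filter on low values, 20 with a filter of 5 FPKM, 47 with upper-quartile scaling and 61 with a robust trend, and 2 to 66 with a library left out (66 and 57 without diet replicate 2 or 3, and 9, 4, 18 and 2 without diet replicate 1 or tofogliflozin replicate 1, 2 or 3). The 1 member past it, Cml5, became 0 with no filter and 2, with Nat8, under upper-quartile scaling and quantile normalization; with a library left out there were 0 to 1. For pathway genes the count of 0 became 1 (Cndp2) under quantile normalization and 0 to 3 with a library left out. For other transferases it became 1 (Nat6) under upper-quartile scaling and 1 with a robust trend, and for neighbours 0 to 1 with a library left out. The cause was not tested. Same-numbered mice did not deviate together (r = -0.055, -0.062 and 0.051), and not every library correlated best with its own number. With 3 mice per group these r values cannot show whether the numbers pair the mice. With the replicate number as a block 26 genes passed, and the member count was unchanged at 1. Depth limits Cml3 most.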
